A study of Homo sapiens with 14 samples.

Results

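The 47 genes described here take part in ribosome biogenesis or make up the nucleolus, and include the transcription factor MYC. They were chosen by name, and all 47 were found among the 56479 genes of the count table. RNA was sequenced from HepG2 (hepatoblastoma per the labels) and Hep3B (hepatocellular carcinoma per the labels), established human liver tumour lines with a genotype labelled wild type, in 7 groups of 2 libraries each. HepG2 on dishes received 4% (v/v) polyethylene glycol 300 (PEG), which draws water out of cells, or isotonic medium, both over 5 days. On transwells, which are inserts with a porous membrane, HepG2 was pressed by a weight or left uncompressed. Hep3B on transwells was pressed by a weight, given 3% PEG or left uncompressed. How heavy the weight was, and how long transwell cultures lasted, is not stated in the labels. Each line stands for a single tumour.

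Ribosomes are put together in the nucleolus. There RNA polymerase I (Pol I) makes the precursor of ribosomal RNA (rRNA), small nucleolar ribonucleoproteins (snoRNPs) guide its chemical modification, and assembly factors fold, cut and package it into the small and large subunits. MYC, paired with MAX, binds the E-box CACGTG and is known in many tumours, those of liver included, as an activator of ribosome biogenesis genes.

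The E-box is shown first because it stands near the transcription start of many of these genes. RefSeq promoters (GRCh38.p14, 250 bases before to 50 after the start) were matched by symbol for 40 of the 47 genes, MYC not among them. The letters CACGTG, which read the same on both strands, occurred in 20 of the 40 (50%), against 7.26% of 35116 promoters and 12% of the 12219 tested genes with a promoter. In those 20 genes a copy began within 50 bases of the start, as it did in 4.97% of tested genes. That window was chosen after the positions had been seen. The promoters of 6 genes whose levels are described further on are printed from 100 bases before to 24 after the start, with the E-box in capitals. They lie at chr19:39846356-39846479, minus strand (FBL), chr3:52685932-52686055, plus strand (GNL3), chr11:34105529-34105652, plus strand (NAT10), chr2:28894567-28894690, plus strand (WDR43), chr22:30591887-30592010, minus strand (PES1) and chr12:101280005-101280128, plus strand (UTP20).
FBL: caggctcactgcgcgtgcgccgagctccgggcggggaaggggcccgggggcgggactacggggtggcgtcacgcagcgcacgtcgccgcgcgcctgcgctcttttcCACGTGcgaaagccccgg
GNL3: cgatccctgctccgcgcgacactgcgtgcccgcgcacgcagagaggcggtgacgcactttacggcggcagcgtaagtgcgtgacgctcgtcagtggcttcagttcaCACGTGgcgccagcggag
NAT10: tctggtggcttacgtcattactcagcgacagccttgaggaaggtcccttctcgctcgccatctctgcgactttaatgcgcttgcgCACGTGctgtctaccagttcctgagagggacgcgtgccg
WDR43: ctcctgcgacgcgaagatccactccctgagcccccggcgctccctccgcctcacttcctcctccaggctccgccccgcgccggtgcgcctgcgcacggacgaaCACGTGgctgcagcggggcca
PES1: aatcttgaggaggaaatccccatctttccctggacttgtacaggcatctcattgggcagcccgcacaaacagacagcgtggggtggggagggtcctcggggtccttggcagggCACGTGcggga
UTP20: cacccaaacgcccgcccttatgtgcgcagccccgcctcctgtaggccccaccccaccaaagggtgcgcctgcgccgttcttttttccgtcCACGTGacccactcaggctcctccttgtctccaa
In FBL and GNL3 the first letter of the E-box is base 7 after the start, and in NAT10 it is base 15 before it. The motif occurred in 9 of 14 small subunit assembly genes, 6 of 10 large subunit assembly genes and 1 of 7 Pol I genes with a promoter. A match is a stretch of letters and says nothing of binding.

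Libraries held 21.2 M to 35.4 M counts. Levels are given in CPM, counts per 1e6 after TMM scaling between libraries. Values with ± are log2 fold changes and their standard errors. "Rose" and "fell" are used of genes with an adjusted p under 0.05 (edgeR, quasi-likelihood, Benjamini-Hochberg) in a fit of all 14 libraries, which tested 19232 genes and all 47 members. The liver genes AFP, ALB and APOA1 were detected in every library, and RB1, which Hep3B is known to have lost, peaked at 4.94 CPM in that line. Of 7 markers of leukocytes, endothelium and fibroblasts, PTPRC and CD3E did not exceed 0.272 CPM, and the summed level was 5.80 to 17.6 CPM. The highest single marker reached 16.7 CPM in both 3% PEG libraries and 11.2 CPM in both 4% PEG libraries. Only 3 of the 7 were tested. Of these, 1 was higher and 1 lower in 4% PEG, and 1 was higher in 3% PEG and under the weight in Hep3B. Replicates on dishes were far apart. Their biological coefficient of variation was 0.29 in 4% PEG and 0.323 in isotonic medium, while every transwell pair lay between 0.0434 and 0.0704. The replicate difference on dishes ran with a gene's GC content (Spearman rho across genes -0.652 in 4% PEG and -0.642 in isotonic medium). All groups shared a coefficient of 0.168 in the fit, below that of the dish pairs and above that of the transwell pairs, so counts fitted on each surface alone stand beside it. In bulk RNA, fewer cells of a type and less RNA per cell cannot be told apart.

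In HepG2 after 5 days in 4% PEG, MYC, the methyltransferase FBL, the Pol I subunit POLR1D and the abundant nucleolar proteins NPM1, NCL and DDX21 fell, while most assembly factors did not pass. Of the 47 genes 15 fell and 2 rose. Among all tested genes 23% fell and 23.9% rose. The median of the 47 was -0.14 against 0.01 over all genes, but the median of the 47 turned positive, at 0.21, when libraries were scaled by total counts, where that of all genes was 0.37. Its size hung on single libraries. Without replicate 1 of 4% PEG it was -0.33 and without replicate 2 -0.03, against 0 over all genes in both. The 30 genes that did not pass ran from -0.52 ± 0.23 (RRS1) to 0.52 ± 0.26 (UTP15).

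MYC stood at 88.3 and 101 CPM in 4% PEG, against 183 and 216 CPM in isotonic medium. Both treated libraries lay well below both controls. In the fit of all libraries the change was -1.08 ± 0.13 (adjusted p = 3.43e-05 by edgeR), and it passed in all 23 alternatives. On dish libraries alone it was -1.08 ± 0.24 (adjusted p = 0.0231 by edgeR).

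**Figure D1:**
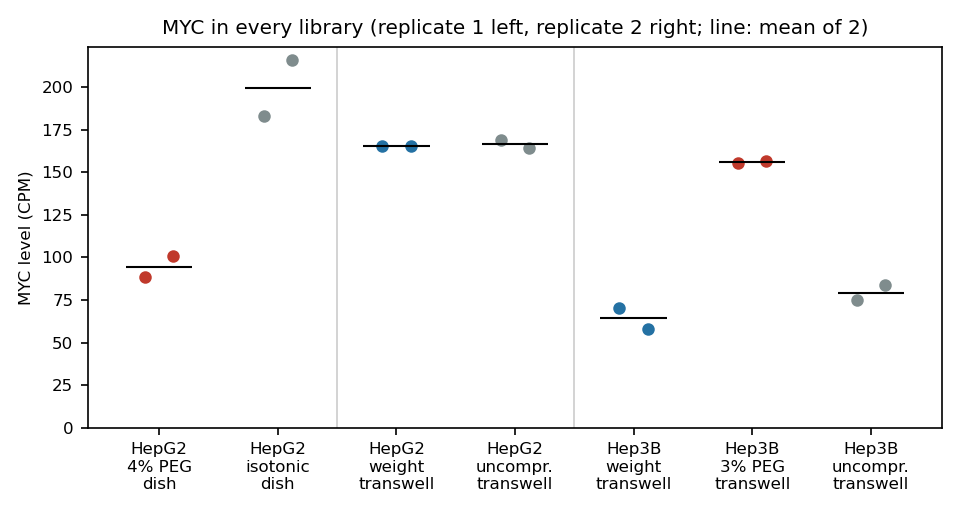
MYC level in CPM (vertical axis) in each library of the 7 groups (horizontal axis), with points for replicates 1 and 2, a line at their mean, red for PEG, blue for the weight and grey for controls. MYC was at 88.3 and 101 CPM in 4% PEG, against 183 and 216 CPM in isotonic medium, and at 155 and 157 CPM in 3% PEG, against 74.8 and 83.9 CPM in uncompressed Hep3B.

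Of 7 genes of Pol I transcription 2 fell and 1 rose, against 23% and 23.9% of all tested genes. POLR1D, a subunit shared with Pol III (GRCh38, chromosome 13, 27620742 to 27744237, plus strand), was at 96.5 and 89.4 CPM in 4% PEG, against 225 and 193 CPM in isotonic medium. The groups were far apart, and POLR1D changed by -1.17 ± 0.11 (adjusted p = 5.65e-06 by edgeR). The NPM1 copy NPM1P4 lies on its other strand, and counting by strand is not stated, so reads of the 2 cannot be told apart. RRN3, which brings Pol I to ribosomal DNA, was at 183 and 138 CPM in 4% PEG, against 120.2 and 99.3 CPM in isotonic medium and rose (0.55 ± 0.15). RRN3 overlaps PDXDC1 on the other strand, and its call ended without replicate 1 of 4% PEG and on dish libraries alone. POLR1B, the second largest Pol I subunit, was at 53.5 and 44.7 CPM in 4% PEG, against 69.8 and 57.0 CPM in isotonic medium (-0.37 ± 0.14, adjusted p = 0.0446 by edgeR), and its call was lost in 16 of 23 alternatives. POLR1A, the largest subunit, was at 90.6 and 94.8 CPM in 4% PEG, against 79.9 and 89.7 CPM in isotonic medium, and did not pass (0.13 ± 0.13).

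Among the 4 abundant nucleolar proteins 3 fell, against 23% of all tested genes. NPM1, a nucleolar chaperone (chromosome 5, 171387116 to 171411137, plus strand), was at 707 and 423 CPM in 4% PEG, against 2036 and 1234 CPM in isotonic medium. Replicates were wide apart, yet the groups did not overlap (-1.53 ± 0.24, adjusted p = 0.000293 by edgeR). NPM1 has processed copies elsewhere that may take or give reads. Nucleolin, NCL, was at 995 and 593 CPM in 4% PEG, against 1585 and 977 CPM in isotonic medium, with groups that overlapped (-0.69 ± 0.23). The RNA helicase DDX21 was at 331 and 220.2 CPM in 4% PEG, against 511 and 342 CPM in isotonic medium (-0.63 ± 0.20). The calls on NCL and DDX21 ended on dish libraries alone, without replicate 1 of isotonic medium, without replicate 2 of 4% PEG and with total counts. NOLC1, a chaperone of snoRNPs, did not pass (-0.20 ± 0.12).

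The cores of the snoRNPs were split. FBL, which methylates rRNA in box C/D snoRNPs and whose promoter is printed above (chromosome 19, 39834458 to 39846414, minus strand), was at 30.3 and 30.1 CPM in 4% PEG, against 139.9 and 161 CPM in isotonic medium. The treated replicates were nearly equal and far below the controls (-2.31 ± 0.11, adjusted p = 2.23e-08 by edgeR). Its partner NOP58 was at 110.1 and 49.8 CPM in 4% PEG, against 124 and 63.0 CPM in isotonic medium. Replicate 1 exceeded replicate 2 by more than the treatment moved NOP58 (-0.22 ± 0.33), and NOP56, the other partner, did not pass either (-0.08 ± 0.12). Box H/ACA snoRNPs turn uridine into pseudouridine. Their enzyme dyskerin, DKC1, was at 69.2 and 55.7 CPM in 4% PEG, against 119.9 and 98.3 CPM in isotonic medium (-0.81 ± 0.13). The subunit NHP2 was at 14.1 and 13.7 CPM in 4% PEG, against 21.1 and 29.01 CPM in isotonic medium (-0.85 ± 0.17). Both fell with groups that did not overlap. On dish libraries alone, edgeR's adjusted p-values were 0.0717 for DKC1 and 0.112 for NHP2. The remaining subunits, GAR1 (0.05 ± 0.24) and NOP10 (0.21 ± 0.17), did not pass.

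**Figure D2:**
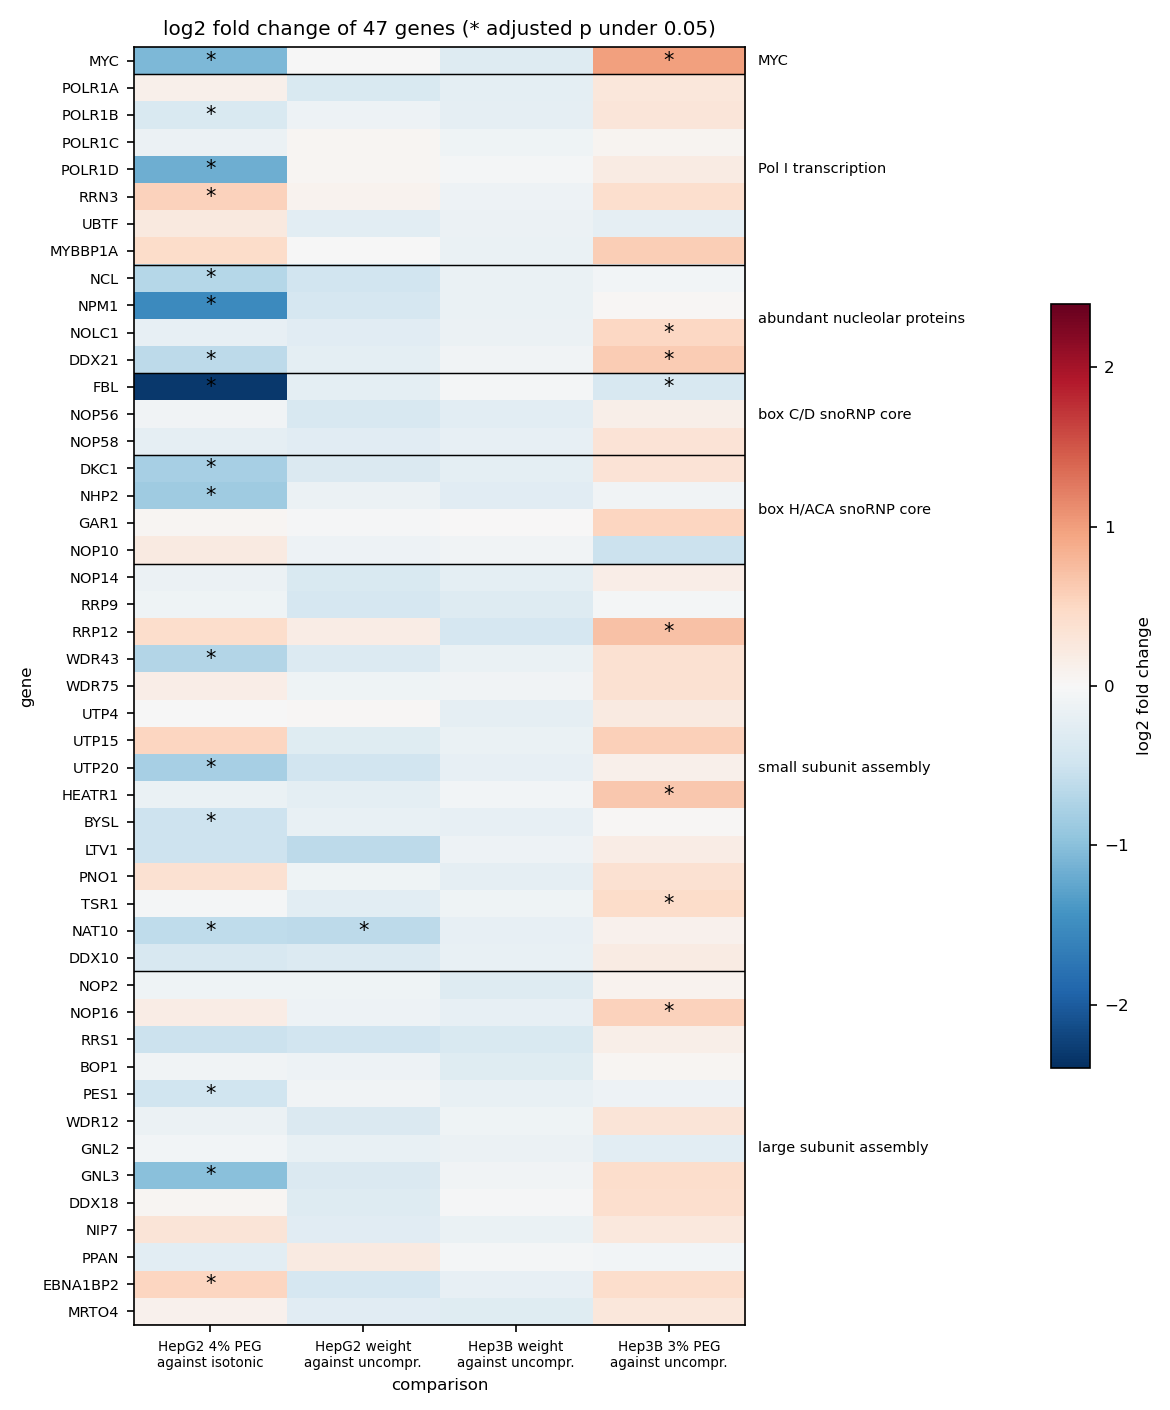
Log2 fold change (colour, red higher and blue lower) of the 47 genes (rows, by role) in 4 comparisons (columns), with a star where the adjusted p was under 0.05. In 4% PEG 15 genes were lower and 2 higher, and in 3% PEG 7 were higher and 1 lower.

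Of 15 small subunit assembly factors 4 fell, with a median of -0.14, while 23% of all tested genes fell. NAT10, which acetylates 18S rRNA (chromosome 11, 34105602 to 34147670, plus strand), was at 57.1 and 45.8 CPM in 4% PEG, against 75.7 and 80.5 CPM in isotonic medium (-0.60 ± 0.12). WDR43 and UTP20 belong to the processome that folds the small subunit precursor. WDR43 was at 122 and 76.5 CPM in 4% PEG, against 187 and 136 CPM in isotonic medium (-0.70 ± 0.20). UTP20 was at 54.1 and 30.5 CPM in 4% PEG, against 85.4 and 60.6 CPM in isotonic medium (-0.79 ± 0.24). The groups did not overlap in these 3 genes. The NAT10 call ended on dish libraries alone and with total counts, and those of the other 2 also when isotonic replicate 1 or 4% PEG replicate 2 was left out. BYSL, a late maturation factor, lay at the edge (-0.50 ± 0.18, adjusted p = 0.0406 by edgeR) and was lost in 15 of 23 alternatives.

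Of 13 large subunit assembly factors 2 fell and 1 rose, with a median of -0.08. Among all tested genes 23% fell and 23.9% rose, so neither share was above that of all genes. GNL3, the GTP-binding protein nucleostemin (chromosome 3, 52681156 to 52694492, plus strand), was at 135 and 101 CPM in 4% PEG, against 261 and 209.9 CPM in isotonic medium. Its groups were far apart (-0.997 ± 0.15, adjusted p = 0.000174 by edgeR), and it passed in all 23 alternatives. GNL3 overlaps PBRM1 and GLT8D1 on the other strand. PES1 was at 48.7 and 46.1 CPM in 4% PEG, against 54.8 and 77.5 CPM in isotonic medium (-0.48 ± 0.14), while BOP1 (-0.08 ± 0.29) and WDR12 (-0.14 ± 0.17), which form a complex with it, did not pass. EBNA1BP2 was at 60.8 and 43.0 CPM in 4% PEG, against 35.1 and 37.7 CPM in isotonic medium and rose (0.51 ± 0.16). The PES1 call ended without replicate 2 of either group and the EBNA1BP2 call without replicate 1 of either group, and both ended on dish libraries alone.

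On the 4 dish libraries alone 5 of the 47 genes fell and none rose, against 10.2% and 11.8% of 17092 tested genes. Falls were thus about as frequent there as among all genes. The 5 were MYC, POLR1D, NPM1, FBL and GNL3. In that order their standard errors there were 0.24, 0.24, 0.37, 0.26 and 0.27. Their adjusted p-values there, by edgeR, were 0.0231, 0.0166, 0.0282, 0.00239 and 0.0399, each larger than with all libraries fitted. In the fit of all libraries, genes with the E-box had a median of -0.12 and genes without it -0.14. In the same libraries 8 of 8 proliferation markers fell, 7 of them on dish libraries alone (median -3.15), with a summed level of 150.7 and 115 CPM in 4% PEG, against 1872 and 1264 CPM in isotonic medium. ALB was at 3263 and 2578 CPM in 4% PEG, against 54409 and 53839.8 CPM in isotonic medium. Mitochondrial genes took 7.34% and 5.05% of counts in 4% PEG, against 1.87% and 0.999% in isotonic medium. The part of these shifts in the results was not tested.

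In Hep3B given 3% PEG, MYC and 6 other genes rose while FBL fell. Among all tested genes 11% rose and 11.5% fell. The median of the 47 was 0.25 against -0.01 over all genes, and 38 of 47 estimates were above 0. MYC was at 155 and 157 CPM in 3% PEG, against 74.8 and 83.9 CPM in uncompressed Hep3B. The treated libraries were nearly equal and stood well above both controls (0.98 ± 0.13, adjusted p = 0.000269 by edgeR).

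HEATR1, a processome member (chromosome 1, 236549005 to 236604504, minus strand), was at 248 and 265 CPM in 3% PEG, against 154 and 172 CPM in uncompressed Hep3B. The groups were far apart (0.66 ± 0.12, adjusted p = 0.00215 by edgeR), and HEATR1 overlaps LGALS8 on the other strand. RRP12, which helps export small subunits, was at 35.5 and 35.5 CPM in 3% PEG, against 21.3 and 22.2 CPM in uncompressed Hep3B (0.70 ± 0.22). DDX21 was at 375 and 357 CPM in 3% PEG, against 239 and 244 CPM in uncompressed Hep3B (0.60 ± 0.20). NOLC1 was at 206 and 199 CPM in 3% PEG, against 144 and 143 CPM in uncompressed Hep3B (0.50 ± 0.12). In these genes the treated libraries stood above the controls by more than the replicates differed. The late small subunit factor TSR1 (0.44 ± 0.11) and the large subunit factor NOP16 (0.55 ± 0.15) rose as well. FBL was at 89.1 and 91.4 CPM in 3% PEG, against 120.2 and 117 CPM in uncompressed Hep3B and fell (-0.39 ± 0.10, adjusted p = 0.0157 by edgeR). MYC and HEATR1 passed in all 24 alternatives, and each of the other 6 calls ended when any 1 of the 4 libraries compared was left out, which left 2 rises and no fall.

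**Figure D3:**
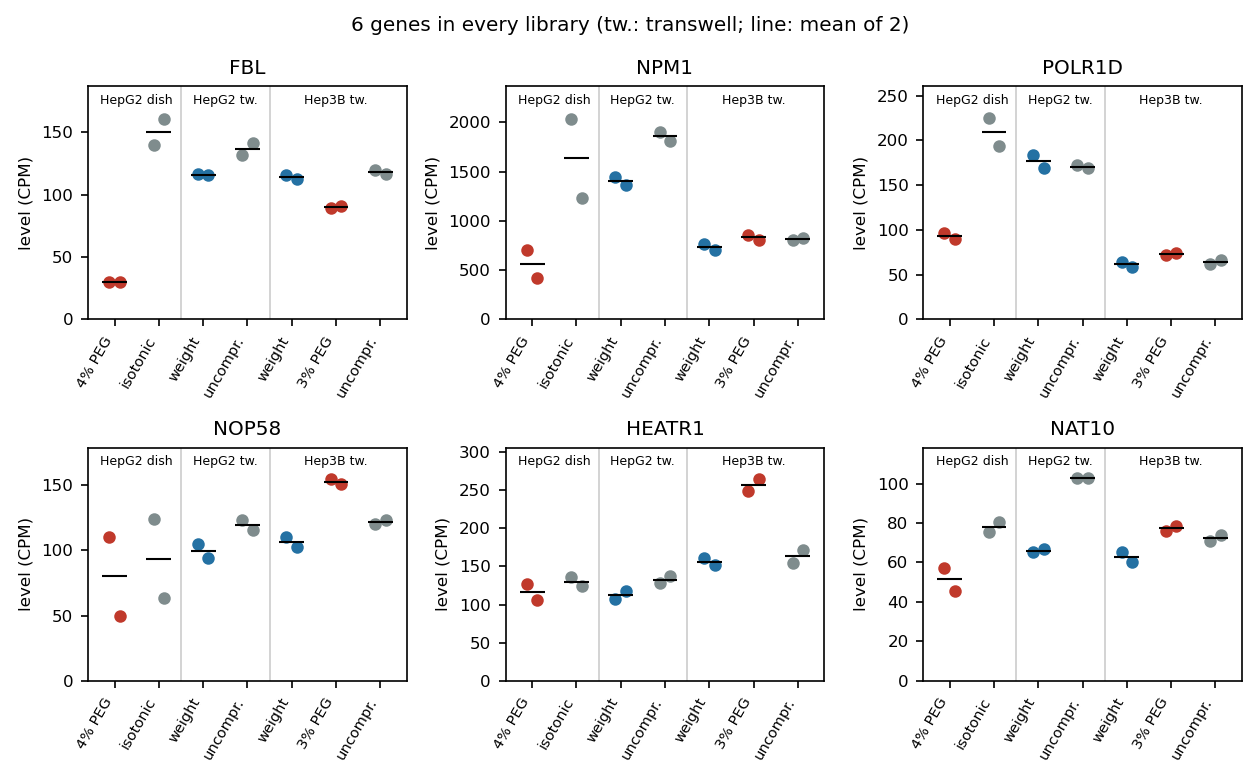
Level in CPM (vertical axes, from 0) of 6 genes in each library of the 7 groups (horizontal axes), with points for replicates 1 and 2 and a line at their mean. FBL was at 30.3 and 30.1 CPM in 4% PEG, against 139.9 and 161 CPM in isotonic medium, and NOP58 shows the replicate gap on dishes, at 110.1 and 49.8 CPM in 4% PEG, against 124 and 63.0 CPM in isotonic medium.

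Fitted on the 10 transwell libraries alone, a choice made after seeing the data, 29 of the 47 genes rose in 3% PEG and 4 fell, against 26.8% and 25.9% of 18255 tested genes. Each role had a rise there, among them the Pol I regulator MYBBP1A (0.62 ± 0.07), RRN3 (0.43 ± 0.06), NOP58 (0.36 ± 0.06), DKC1 (0.36 ± 0.05), UTP15 (0.60 ± 0.08) and GNL3 (0.46 ± 0.05). The falls were FBL (-0.36 ± 0.05), NOP10 (-0.48 ± 0.06), GNL2 (-0.22 ± 0.06) and UBTF, an architectural factor of ribosomal DNA (-0.18 ± 0.05). NPM1 was at 861 and 804 CPM in 3% PEG, against 809 and 831 CPM in uncompressed Hep3B, with overlapping groups, and did not pass in either fit. In the fit of all libraries, genes with the E-box had a median of 0.17 and genes without it 0.26. Of 8 proliferation markers 4 fell, and 6 on transwell libraries alone (median -0.52 in the fit of all libraries), with a summed level of 1912 and 1960 CPM in 3% PEG, against 2449 and 2573 CPM in uncompressed Hep3B. Their part in the result was not tested.

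The PEG treatments of the lines differ in dose and surface, so their log2 fold changes stand side by side without a test. MYC was at -1.08 ± 0.13 in HepG2 with 4% PEG and 0.98 ± 0.13 in Hep3B with 3% PEG. DDX21 was at -0.63 ± 0.20 in HepG2 and 0.60 ± 0.20 in Hep3B, and GNL3 at -0.997 ± 0.15 in HepG2 and 0.43 ± 0.14 in Hep3B. FBL lay below 0 in both lines, and RRN3, at 0.55 ± 0.15 in HepG2 and 0.40 ± 0.15 in Hep3B, lay above 0 in both.

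**Figure D4:**
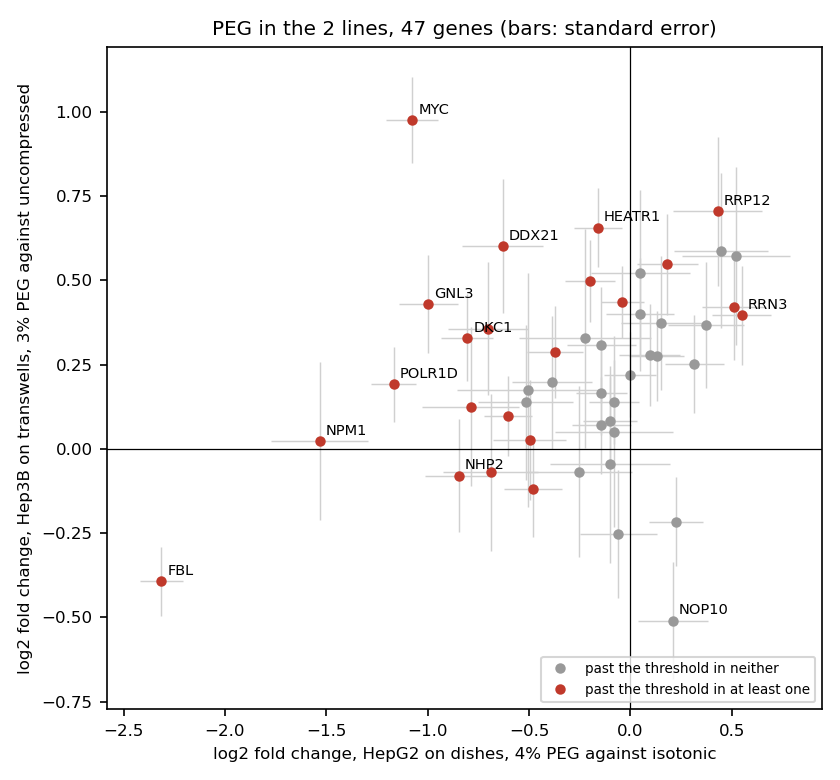
Log2 fold change of the 47 genes in HepG2 with 4% PEG on dishes (horizontal axis) and in Hep3B with 3% PEG on transwells (vertical axis), with standard errors as bars, red where the adjusted p was under 0.05 in at least 1 line. MYC (-1.08 and 0.98) lies at the upper left and FBL (-2.31 and -0.39) at the lower left.

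Under the weight, HepG2 had NAT10 lower and MYC near its control level. Of the 47 genes 1 fell and none rose by edgeR, with an unadjusted p under 0.05 for 10 and 1 call by DESeq2. Among all tested genes 4.18% fell and 5.4% rose. The median of the 47 was -0.26 against 0.00 over all genes, and 41 of 47 estimates were below 0, against 49.2% of all genes. NAT10 was at 65.1 and 67.0 CPM under the weight in HepG2, against 103 and 103 CPM in uncompressed HepG2. The groups were far apart (-0.64 ± 0.12, adjusted p = 0.00666 by edgeR), though the call ended with any 1 of these 4 libraries left out. MYC was at 166 and 166 CPM under the weight in HepG2, against 169 and 164 CPM in uncompressed HepG2, with overlapping groups (-0.01 ± 0.13). Its estimate turned positive in 8 of 24 alternatives and passed in none.

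NPM1 was at 1445 and 1363 CPM under the weight in HepG2, against 1905 and 1816 CPM in uncompressed HepG2 (-0.41 ± 0.24). NOP56 was at 198 and 189.9 CPM under the weight in HepG2, against 261 and 247 CPM in uncompressed HepG2 (-0.39 ± 0.12). EBNA1BP2 was at 38.9 and 32.9 CPM under the weight in HepG2, against 48.6 and 46.2 CPM in uncompressed HepG2 (-0.40 ± 0.16). None of these 3 genes passed in the fit of all libraries. On transwell libraries alone 26 of the 47 fell and 1 rose, against 19% and 19.6% of tested genes. The falls included NCL (-0.43 ± 0.05), NPM1 (-0.37 ± 0.05), NOP56 (-0.36 ± 0.05), DKC1 (-0.32 ± 0.05), NAT10 (-0.60 ± 0.06), UTP20 (-0.43 ± 0.10) and the late small subunit factor LTV1 (-0.60 ± 0.07). RRP12 rose (0.20 ± 0.08), and of the 7 Pol I genes UBTF alone passed (-0.22 ± 0.05). Of 8 proliferation markers 4 fell in the fit of all libraries (median -0.88) and 8 on transwell libraries alone, with a summed level of 987 and 1048 CPM under the weight, against 1876 and 1939 CPM in uncompressed HepG2. Their part in the result was not tested.

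The 4% PEG effect minus the weight effect in HepG2, in which the kind of compression and the surface cannot be told apart, was lower for 6 of the 47 genes and higher for 2, against 15.5% and 14.4% of all tested genes. The 6 were FBL (-2.08 ± 0.14), POLR1D (-1.22 ± 0.16), NPM1 (-1.13 ± 0.33), MYC (-1.07 ± 0.18), NHP2 (-0.71 ± 0.24) and GNL3 (-0.65 ± 0.20). EBNA1BP2 (0.91 ± 0.22) and the large subunit factor NIP7 (0.59 ± 0.20) were higher. With the compared groups alone neither of these was called, and fewer genes were lower. The median of the 47 was 0.07, against 0.01 over all genes, and both shares of calls lay below those of all genes. Without replicate 1 of 4% PEG the median of the 47 was -0.16, and without replicate 2 it was 0.19. Over all genes it was -0.03 in each case.

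Under the weight, Hep3B gave no call among the 47 genes by edgeR, with an unadjusted p under 0.05 for 2 and 0 calls by DESeq2. Few genes of any kind passed, 0.172% lower and 0.879% higher. Estimates lay to one side, 46 of 47 below 0 against 52.3% of all genes, with a median of -0.16 against -0.01. All 47 come from the same libraries. Without replicate 1 under the weight the median was -0.24, and without replicate 2 it was -0.11, against -0.03 and -0.02 over all genes. This comparison and that of 3% PEG share the uncompressed libraries. MYC was at 70.2 and 58.1 CPM under the weight in Hep3B, against 74.8 and 83.9 CPM in uncompressed Hep3B. MYC did not pass in the fit of all libraries (-0.31 ± 0.13, adjusted p = 0.503 by edgeR). NOP2, an rRNA methyltransferase, was at 50.7 and 41.1 CPM under the weight in Hep3B, against 56.7 and 57.2 CPM in uncompressed Hep3B (-0.31 ± 0.13). NOP14, a processome member, was at 112 and 104 CPM under the weight in Hep3B, against 129 and 126 CPM in uncompressed Hep3B (-0.24 ± 0.12). Neither NOP2 nor NOP14 passed in the fit of all libraries. On transwell libraries alone 11 fell and none rose, against 6.86% and 8.38% of tested genes. The 11 were MYC (-0.28 ± 0.07, adjusted p = 0.0047 by edgeR), RRP12 (-0.38 ± 0.09), RRS1 (-0.34 ± 0.10), NOP2 (-0.28 ± 0.07), BOP1 (-0.26 ± 0.07), MRTO4 (-0.26 ± 0.08), NOP56 (-0.23 ± 0.06), DKC1 (-0.21 ± 0.05), NOP14 (-0.21 ± 0.05), UTP4 (-0.19 ± 0.06) and NAT10 (-0.17 ± 0.06). Proliferation markers summed to 2560 and 2469 CPM under the weight, against 2449 and 2573 CPM in uncompressed Hep3B.

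The weight effect in Hep3B minus that in HepG2 passed for none of the 47 genes by edgeR, with an unadjusted p under 0.05 for 1 and 0 calls by DESeq2, against 0.822% of all genes higher and 1.07% lower. On transwell libraries alone it was higher for 6 and lower for 3, against 12.2% and 10.3% of tested genes. NAT10 (0.43 ± 0.08) and LTV1 (0.50 ± 0.10) were among the 6. The 3 were MYC (-0.30 ± 0.09), RRP12 (-0.58 ± 0.12) and UTP4 (-0.26 ± 0.09).

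Hep3B under the weight was also set against Hep3B in 3% PEG. Of the 47 genes 20 were lower and 1 higher under the weight, where 11.4% of all tested genes were lower and 11.8% higher. MYC was at 70.2 and 58.1 CPM under the weight in Hep3B, against 155 and 157 CPM in 3% PEG. These groups were far apart (-1.28 ± 0.13, adjusted p = 4.21e-05 by edgeR). RRP12 (-1.11 ± 0.22), NOP16 (-0.75 ± 0.15), MYBBP1A (-0.75 ± 0.23), HEATR1 (-0.72 ± 0.12) and DDX21 (-0.69 ± 0.20) were among the lower genes, and FBL was higher (0.34 ± 0.10). On transwell libraries alone 38 were lower and 2 higher, against 25.5% and 26.6% of tested genes. The lower count was 10 without replicate 1 and 4 without replicate 2 under the weight, and 5 without replicate 1 and 7 without replicate 2 of 3% PEG.

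Uncompressed Hep3B differed from uncompressed HepG2 in 5 genes that were higher and 14 that were lower, against 27.6% and 27.1% of all tested genes. On transwell libraries alone 8 were higher and 27 lower, against 37.5% and 36.5% of tested genes. MYC was at 74.8 and 83.9 CPM in uncompressed Hep3B, against 169 and 164 CPM in uncompressed HepG2 (-1.07 ± 0.13). POLR1D was at 61.5 and 66.0 CPM in uncompressed Hep3B, against 172 and 169 CPM in uncompressed HepG2 (-1.42 ± 0.11). NIP7 was at 34.8 and 34.7 CPM in uncompressed Hep3B, against 84.4 and 80.3 CPM in uncompressed HepG2 (-1.24 ± 0.15). In these 3 genes the lines did not overlap. WDR43 (-1.21 ± 0.20), NPM1 (-1.18 ± 0.24) and GNL3 (-1.06 ± 0.15) were lower too. NOP10 (0.69 ± 0.17), UBTF (0.58 ± 0.13), NOP14 (0.43 ± 0.13), NOP2 (0.36 ± 0.13) and HEATR1 (0.30 ± 0.12) were higher in Hep3B. Per kilobase of exon, NPM1 had the highest level of the 47 in both, at 214 CPM per kb in uncompressed Hep3B and 486 CPM per kb in uncompressed HepG2.

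Further factors of the pathway, taken from lists by role, moved both ways in 4% PEG. Of 42 other small subunit factors 13 rose and 4 fell (median 0.10). RCL1, an rRNA processing factor, was at 69.2 and 68.8 CPM in 4% PEG, against 16.8 and 16.2 CPM in isotonic medium (2.06 ± 0.13), and the nuclease NOB1, which trims 18S rRNA, fell (-1.31 ± 0.12). Of 48 other large subunit factors 9 rose and 12 fell (median -0.03), among them EFL1, a GTPase of late maturation (1.64 ± 0.13), and NLE1 (-2.50 ± 0.25). Of 20 genes of rRNA trimming 4 rose and 5 fell, and of 9 snoRNP assembly factors 1 rose and 1 fell. The 9 other Pol I factors gave no call by edgeR, with 0 at an unadjusted p under 0.05 and 0 by DESeq2. On dish libraries alone 3 rose and 1 fell of the 42, and 3 rose and 2 fell of the 48, with RCL1, NOB1, EFL1 and NLE1 among them. No gene of rRNA trimming, snoRNP assembly or the other Pol I factors passed there by edgeR, with 3, 0 and 0 at an unadjusted p under 0.05. These shares are read against 23.9% higher and 23% lower among all genes in the fit of all libraries, and 11.8% and 10.2% on dish libraries. In 3% PEG 7 of the 42 rose and 1 fell, and 4 of the 48 rose and 1 fell, against 11% and 11.5% of all genes. On transwell libraries alone 21 of the 42 rose and 6 fell, 30 of the 48 rose and 3 fell, and 5 of the 9 other Pol I factors rose and none fell, against 26.8% and 25.9% of all genes. Of the same 42 under the weight in HepG2, 4 rose and 21 fell on transwell libraries alone, and of the 48, 4 rose and 19 fell, against 19.6% and 19% of all genes.

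Of 19 genes of Pol III, which makes tRNA and 5S rRNA, 3 rose and 1 fell in 4% PEG. In 3% PEG 5 rose and none fell, and under the weight in HepG2 1 rose and 4 fell. Among all tested genes 23.9% rose and 23% fell in 4% PEG, 11% and 11.5% in 3% PEG, and 5.4% and 4.18% under the weight. POLR3C rose in those 3 comparisons, at 1.70 ± 0.12 in 4% PEG, 1.08 ± 0.11 in 3% PEG and 0.43 ± 0.12 under the weight. On each surface alone it also passed in those 3 comparisons. The counts of the 19 there were 1 higher and 1 lower in 4% PEG, against 11.8% and 10.2% of all genes. They were 9 higher and 2 lower in 3% PEG, against 26.8% and 25.9%. Under the weight in HepG2 they were 1 higher and 8 lower, against 19.6% and 19%.

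Host genes of small nucleolar RNAs fell in 9 of 12 cases in 4% PEG, and 1 rose (median -1.21), against 23% and 23.9% of all genes. SNHG7 was at 4.95 and 6.497 CPM in 4% PEG, against 26.8 and 38.1 CPM in isotonic medium (-2.50 ± 0.21). GAS5 was at 27.1 and 30.2 CPM in 4% PEG, against 61.8 and 73.3 CPM in isotonic medium (-1.24 ± 0.12). The rise was that of SNHG15, on 4 and 3 counts in 4% PEG, against 0 in both isotonic libraries. On dish libraries alone 9 of 11 tested fell and none rose, against 10.2% and 11.8% of all genes. In 3% PEG 4 rose and 1 fell, against 11% and 11.5% of all genes. On transwell libraries alone 8 rose and 1 fell there, against 26.8% and 25.9%. GAS5 was at 134 and 128 CPM in 3% PEG, against 63.5 and 67.2 CPM in uncompressed Hep3B (1.00 ± 0.12).

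Of 20 known MYC targets outside the nucleolus 13 fell in 4% PEG and none rose (median -0.74), against 23% and 23.9% of all genes. TFRC, the transferrin receptor, was at 511 and 401 CPM in 4% PEG, against 2123 and 1830.2 CPM in isotonic medium (-2.11 ± 0.13). On dish libraries alone 5 of the 20 fell, against 10.2% of all genes, with TFRC among them. In 3% PEG 1 rose and 3 fell, against 11% and 11.5% of all genes. On transwell libraries alone 5 rose and 11 fell there, against 26.8% and 25.9%. The rise in the fit of all libraries was that of ODC1, the first enzyme of polyamine synthesis, at 212 and 206 CPM in 3% PEG, against 105 and 105 CPM in uncompressed Hep3B (1.00 ± 0.16), and PTMA (-0.91 ± 0.21) was the steepest fall. Under the weight in HepG2 1 of the 20 targets fell and none rose, against 4.18% and 5.4% of all genes. On transwell libraries alone 13 fell there and none rose, against 19% and 19.6%, while MYC was at 0.03 and not called. Under the weight in Hep3B 1 target rose and none fell, against 0.879% and 0.172% of all genes. On transwell libraries alone 3 rose and 7 fell there, against 8.38% and 6.86%. Of 14 genes of the MYC network 3 rose and 2 fell in each PEG comparison. The shares of all genes were 23.9% and 23% in 4% PEG and 11% and 11.5% in 3% PEG. On dish libraries alone 1 of 13 tested network genes rose and 1 fell in 4% PEG, against 11.8% and 10.2% of all genes. On transwell libraries alone 6 of 14 rose and 5 fell in 3% PEG, against 26.8% and 25.9%. MAX, the partner of MYC, rose in both PEG comparisons (0.61 ± 0.12 in 4% PEG and 0.64 ± 0.12 in 3% PEG), but in 4% PEG its call ended on dish libraries alone (adjusted p = 0.175 by edgeR). MXD1, which competes with MYC for MAX, was at 95.9 and 88.7 CPM in 4% PEG, against 27.3 and 24.2 CPM in isotonic medium (1.84 ± 0.12). MXI1, another competitor, fell in 4% PEG (-1.20 ± 0.13) and rose in 3% PEG (0.93 ± 0.14), under the weight in HepG2 (0.73 ± 0.13) and under the weight in Hep3B (1.14 ± 0.14).

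**Figure D5:**
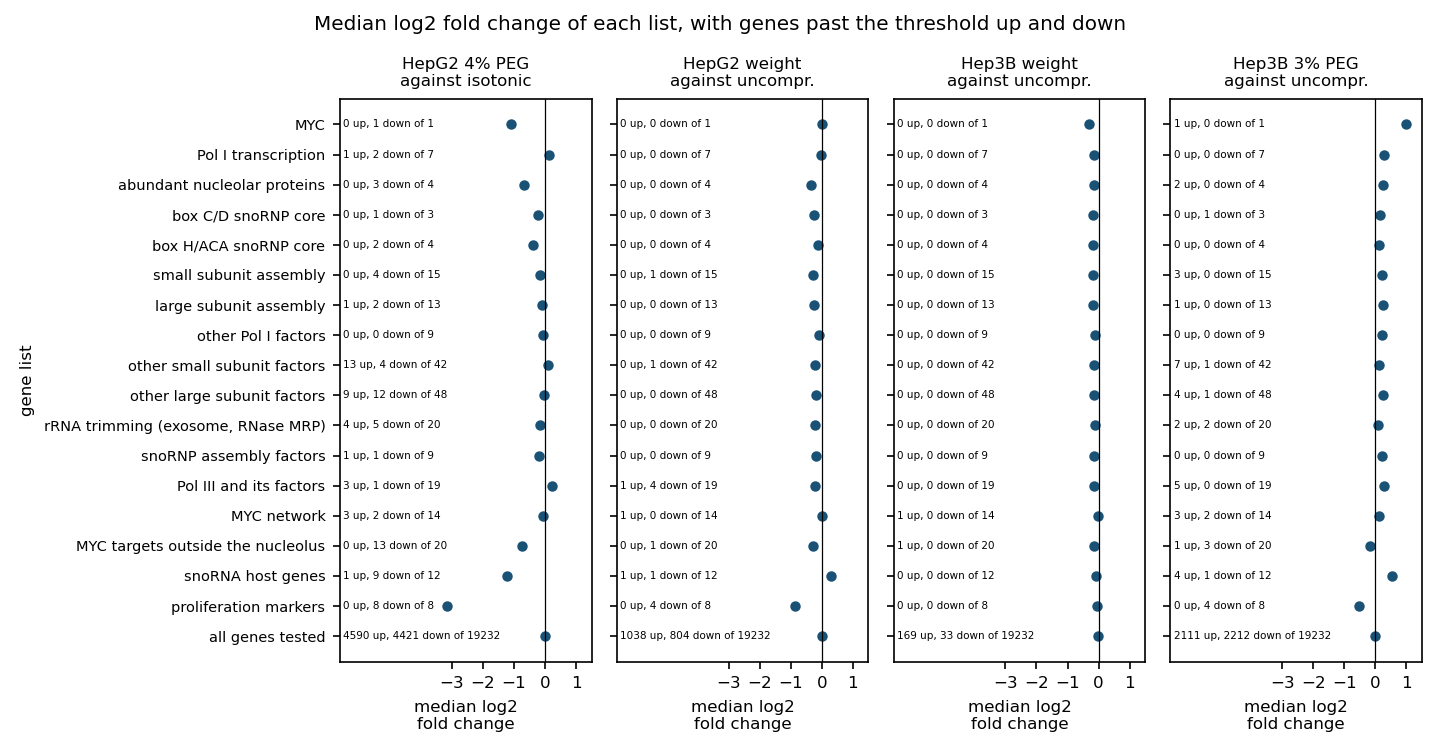
Median log2 fold change (horizontal axes) of each gene list (rows) in 4 comparisons (panels), with the number of genes past the threshold in each direction written beside each row. The snoRNA host genes (-1.21) and the proliferation markers (-3.15) lay far below 0 in 4% PEG, where small subunit assembly (-0.14) and large subunit assembly (-0.08) lay near 0.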

How the data were processed

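Whole-number counts per gene and library were deposited by the authors, made from paired 100 bp reads. STAR, DESeq2 and GRCh38 appear without versions in the submitters' processing notes. Counting tool, strand setting and annotation are not stated. Columns named Hep3B control were read as uncompressed Hep3B, since every other group has columns of its own. Libraries of a group are labelled biological replicates with no word on separate cultures, so p-values measure the spread between labelled samples.

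Members, lists and tests were chosen with earlier results of these data known. Counts were fitted with edgeR 4.0.16 in R 4.3.3 (filterByExpr, minimum count 10; TMM; robust glmQLFit; 1 mean per group; 7 residual degrees of freedom), at an adjusted p under 0.05. Values in every library are given for MYC and, by role, for genes with the smallest p in a comparison and genes called against their role's direction, and for genes of other lists with the smallest p. A few more members shown with values were picked after these had been seen. Alternatives were RLE scaling, 2 other filters, the compared groups alone, DESeq2 1.42.0, a replicate term, a GC correction and each library left out, and, added later, total-count scaling and transwell libraries alone. The model was run on simulated data in which all groups shared the same spread for a gene. That run cannot check p-values where the dish pairs vary more than the fit allows. Positions are from GENCODE 29 (GRCh38), promoters from RefSeq.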

Additional observations from a re-analysis of the deposited data

Results flagged for a closer look

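In 9 of the 47 genes both 4% PEG libraries of HepG2 lay below both isotonic libraries while both 3% PEG libraries of Hep3B lay above both uncompressed libraries. That is 19.1% of the members, against 1151 of all 19232 tested genes (5.98%). The opposite pattern was seen in 0 members and in 1340 of all tested genes. The difference between the effects was not tested, because dose and surface differ between the lines. The log2 fold change in HepG2 minus that in Hep3B was -2.05 for MYC, -1.43 for GNL3, -1.36 for POLR1D, -1.23 for DDX21, -1.14 for DKC1, -1.06 for WDR43, -0.91 for UTP20, -0.70 for NAT10 and -0.66 for POLR1B.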

How the results depend on the processing

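No member that passed changed sign under an alternative. MYC passed for the weight in Hep3B with the compared groups alone (-0.27, adjusted p = 0.0386 by edgeR) and on transwells alone (-0.28). With total counts the median of the 47 was 0.21 in 4% PEG, above 0, and 0.33 in 3% PEG. The medians over all genes were then 0.37 and 0.05. With TMM scaling the 4% PEG medians were -0.14 for the 47 and 0.01 for all genes, so both moved up. Why the MYC call changed with the libraries fitted was not tested.

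With the compared groups alone, the members called were 0 higher and 5 lower in 4% PEG, 1 higher and 25 lower for the weight in HepG2, 9 lower for the weight in Hep3B, 31 higher and 4 lower in 3% PEG, 2 higher and 37 lower for the weight against 3% PEG, 8 higher and 29 lower between the lines, 6 higher and 1 lower for the weight effect in Hep3B minus HepG2, and 0 higher and 3 lower for the 4% PEG effect minus the weight effect. Over all genes tested in those fits, 2022 of 17092 were higher and 1742 lower in 4% PEG. For the weight they were 3556 and 3416 of 15653 in HepG2, and 1049 of 16303 were lower in Hep3B. In 3% PEG they were 4885 and 4979 of 16445, and for the weight against 3% PEG 4633 and 4695 of 16391. Between the lines they were 6751 and 6520 of 16749. The differences of effects gave 1961 and 1772 of 17823 and 1454 and 2097 of 17471, in that order. On transwells alone the members called were 1 higher and 26 lower for the weight in HepG2, 11 lower for the weight in Hep3B, 29 higher and 4 lower in 3% PEG, 2 higher and 38 lower for the weight against 3% PEG, 8 higher and 27 lower between the lines, and 6 higher and 3 lower for the difference of weight effects. Shares of all genes on transwells are given above with each comparison. With total counts 15 members were higher and 7 lower in 4% PEG, 13 higher in 3% PEG, 0 higher for the weight against 3% PEG, 8 higher and 8 lower between the lines, and 13 higher and 3 lower for 4% PEG minus the weight. Of all 19232 genes 6918 were higher and 2897 lower in 4% PEG with that scaling. In 3% PEG 2708 were higher, and for the weight against 3% PEG 1928. Between the lines 7178 were higher and 3788 lower. With the GC correction 8 members were higher in 4% PEG, 10 lower for the weight in HepG2, 1 lower for the weight in Hep3B, 18 higher and 3 lower in 3% PEG, 1 lower for the difference of weight effects, and 8 higher for 4% PEG minus the weight. Of all 19232 genes 5663 were higher there in 4% PEG, 1971 lower for the weight in HepG2 and 189 lower for the weight in Hep3B. In 3% PEG 3263 were higher and 3542 lower. For the difference of weight effects 631 were lower, and for 4% PEG minus the weight 3996 were higher. Without a filter 4 members were lower for the weight in HepG2 and 0 higher for the weight against 3% PEG. Of all 38337 genes tested that way 930 were lower in the first and 2538 higher in the second. The stricter filter and DESeq2 each gave 2 members lower in 3% PEG, and RLE scaling and DESeq2 each gave 1 higher for 4% PEG minus the weight. Over all genes the first pair gave 1899 lower of 12237 and 2478 lower of 19232. The second pair gave 2624 and 2802 higher of 19232.

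Replicate numbers are not said to pair libraries, and replicate differences correlated at 0.633 across genes between the dish groups and at -0.0777 to 0.0732 elsewhere. With the replicate block 2 members were lower for the weight in HepG2, 2 lower in 3% PEG and 4 higher for 4% PEG minus the weight. Of all 19232 genes these were 975, 2409 and 2963. With the replicate block and the GC correction 8 members were higher in 4% PEG, 17 lower for the weight in HepG2, 1 lower for the weight in Hep3B, 19 higher and 3 lower in 3% PEG, 2 higher and 32 lower for the weight against 3% PEG, 1 lower for the difference of weight effects, and 9 higher for 4% PEG minus the weight. Of all 19232 genes 5767 were higher there in 4% PEG, 2140 lower for the weight in HepG2 and 219 lower for the weight in Hep3B. In 3% PEG 3411 were higher and 3690 lower, and for the weight against 3% PEG 3649 and 3373. For the difference of weight effects 689 were lower, and for 4% PEG minus the weight 4117 were higher. Crossed pairing was not run, since no correlation was low enough for it.

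With 1 library left out, counts ran from 1 to 5 higher and 9 to 21 lower in 4% PEG, 0 to 5 lower for the weight in HepG2, 2 to 13 higher and 0 to 2 lower in 3% PEG, 0 to 2 higher and 4 to 28 lower for the weight against 3% PEG, 2 to 6 higher and 9 to 20 lower between the lines, and 1 to 6 higher and 3 to 10 lower for 4% PEG minus the weight. Without replicate 2 of 4% PEG 9 fell and 5 rose in 4% PEG, and without replicate 1 of it 1 rose. Leaving out any dish library gave 12 or 13 rises in 3% PEG. The lone library is taken to vary as other groups do. Calls over all genes changed in these fits too, so the counts alone do not describe the members.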
